A study of Homo sapiens with 16 samples.

Results

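The genes described here are 8 negative regulators of receptor tyrosine kinase and MAP kinase signalling, namely the Sprouty genes SPRY1, SPRY2 and SPRY4, the Sprouty-related genes SPRED1 and SPRED2, and the dual-specificity phosphatase genes DUSP4, DUSP5 and DUSP6. They were found by symbol among the 60676 Ensembl gene IDs counted, 1 ID each, and all 8 passed the low count filter that left 21810 genes. The set was chosen by the SPRY4 level, which stood far higher under enzalutamide. SPRY4, and all 8 genes in the drug comparison of wild-type cells, are therefore described with no test.

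RNA was sequenced from LNCaP, an androgen-responsive line from a lymph node metastasis of prostate adenocarcinoma, in 4 groups of 4 libraries. DKO EZ and DKO DMSO were LNCaP cells in which RB and p53 had both been disrupted with CRISPR-Cas9, kept for 6 days in 50 µM enzalutamide (EZ), an antiandrogen used against prostate cancer, or in the same volume of the solvent DMSO. WT EZ and WT DMSO were LNCaP cells without that disruption, given the same 2 treatments. Whether the knockout cells were 1 clone or a pool, and whether replicates were separate cultures, is not given in the sources used here, and a p-value here covers the variation among these libraries, which may be technical.

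Growth factor receptors switch on RAS, which activates the kinases RAF, MEK and ERK in turn. ERK raises the transcription of many of its own inhibitors. Sprouty proteins act between the receptor and RAF, and SPRED proteins bring the RAS-inactivating protein neurofibromin to the membrane. DUSP4 and DUSP5 in the nucleus, and DUSP6 in the cytoplasm, remove the activating phosphates from ERK. For this reason transcripts such as SPRY4 and DUSP6 are commonly read as a sign of ERK output, in prostate cancer cells as elsewhere.

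The 250 bases before the annotated start are shown for the 3 genes that carry the main differences and have an entry in the RefSeq promoter table (GRCh38.p14). They are SPRY4, which had the largest drug difference of the 8 genes, and SPRED1 and SPRED2, which differed between genotypes in opposite directions. Each runs 5′ to 3′ on its own strand. SPRY4 (chr5:142324248-142324497) and SPRED2 (chr2:65432600-65432849) lie on the minus strand and SPRED1 (chr15:38252586-38252835) on the plus strand. Capitals mark an SP1 box, GGGCGG or its reverse complement.
SPRY4: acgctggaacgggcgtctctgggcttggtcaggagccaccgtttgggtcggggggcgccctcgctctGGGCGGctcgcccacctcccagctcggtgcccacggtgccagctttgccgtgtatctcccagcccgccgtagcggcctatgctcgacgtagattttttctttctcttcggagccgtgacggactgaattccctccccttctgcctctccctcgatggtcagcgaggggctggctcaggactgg
SPRED1: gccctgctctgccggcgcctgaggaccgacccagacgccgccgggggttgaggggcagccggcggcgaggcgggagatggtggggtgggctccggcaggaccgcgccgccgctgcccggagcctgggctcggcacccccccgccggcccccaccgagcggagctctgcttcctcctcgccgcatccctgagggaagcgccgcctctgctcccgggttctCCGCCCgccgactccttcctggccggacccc
SPRED2: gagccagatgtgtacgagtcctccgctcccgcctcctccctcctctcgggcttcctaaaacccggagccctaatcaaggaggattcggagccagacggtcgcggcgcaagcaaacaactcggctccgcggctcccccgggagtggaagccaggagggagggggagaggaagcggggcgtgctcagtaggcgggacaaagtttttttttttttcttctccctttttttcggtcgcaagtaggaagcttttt
The SPRY4 start in this table lies 2207 bases inside the outermost start of the gene in the GENCODE release 29 annotation. The SPRED1 start lies 509 bases inside that of its gene. Each of these windows is thus that of 1 annotated transcript and lies within the gene. The table held 6 of the 8 genes; DUSP4 and DUSP5 had none. Over windows of 300 bases (250 before the start and 50 after), searched on both strands, the SP1 box was present in SPRED1, SPRED2, SPRY2 and SPRY4, 4 of 6, against 45.0% of 35116 promoters. An ETS core (CCGGAA) was present in 1 of 6, SPRY2, against 17.2% of all promoters. The AP-1 motif TGANTCA (7.71% of all promoters), the CRE TGACGTCA (1.85%), the E2F motif TTTNGCGC (1.79%), the CArG box (1.29%) and the p53 site (0.0171%) were found in none of the 6 windows. In the 250 bases alone the SP1 box count was 3 of 6, the SPRED2 box lying after the start. These are matches of letters in short windows and say nothing of binding.

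Library totals lay between 11823438 and 47678648 counts, with a median of 23919882. RB1, one of the targeted genes, averaged 11.7 ± 1.67 CPM (counts scaled to library size) in DKO EZ and 10.6 ± 1.15 CPM in DKO DMSO, against 112 ± 11.2 CPM in WT EZ and 115 ± 11.3 CPM in WT DMSO (SD, n = 4 each). Every library thus fitted its genotype label. The p53 transcript was not used here. All 8 luminal prostate markers used (such as KLK3, HOXB13 and KRT8) were detected in every group, with summed levels of 2281 to 3574 CPM in DKO EZ, 2262 to 3168 CPM in DKO DMSO, 4947 to 5534 CPM in WT EZ and 4657 to 5531 CPM in WT DMSO. The 7 leukocyte markers summed to at most 5.21 CPM in any library, with CD3E at 0 throughout. Summed endothelial markers (6 genes) were 3.89 to 5.60 CPM in DKO EZ, 7.30 to 12.4 CPM in DKO DMSO, 3.93 to 8.31 CPM in WT EZ and 7.31 to 18.9 CPM in WT DMSO. Summed fibroblast markers (7 genes) were 39.3 to 53.8 CPM in DKO EZ, 29.1 to 48.2 CPM in DKO DMSO, 17.3 to 22.4 CPM in WT EZ and 17.4 to 22.8 CPM in WT DMSO. In bulk RNA, fewer cells of a type and less RNA per cell cannot be told apart. Libraries stood apart in 2 ways. RN7SL1, the RNA of the signal recognition particle, made up 2201 to 6207 CPM of the total in 6 libraries (replicates 1 and 2 of both DKO groups and replicate 1 of both WT groups) and 481 to 1166 CPM in the other 10, so the high set was even over the drug but held 4 DKO and 2 WT libraries. The 15 mitosis genes summed to 444 CPM in DKO EZ replicate 1, against 1136 to 1592 CPM in the other DKO EZ libraries. They summed to 250 CPM in WT EZ replicate 1, against 949 to 1036 CPM in the other WT EZ libraries. Replicate 4 of the DMSO groups was low too, at 1018 CPM in DKO DMSO, against 2211 to 2504 CPM in the other 3 libraries, and at 329 CPM in WT DMSO, against 1061 to 1937 CPM in the other 3. The part of the markers and of the mitosis genes in the results was not tested. The RN7SL1 set was entered as a term, and replicate 1 of both EZ groups left out, only in alternatives to the main fit.

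**Figure D1:**
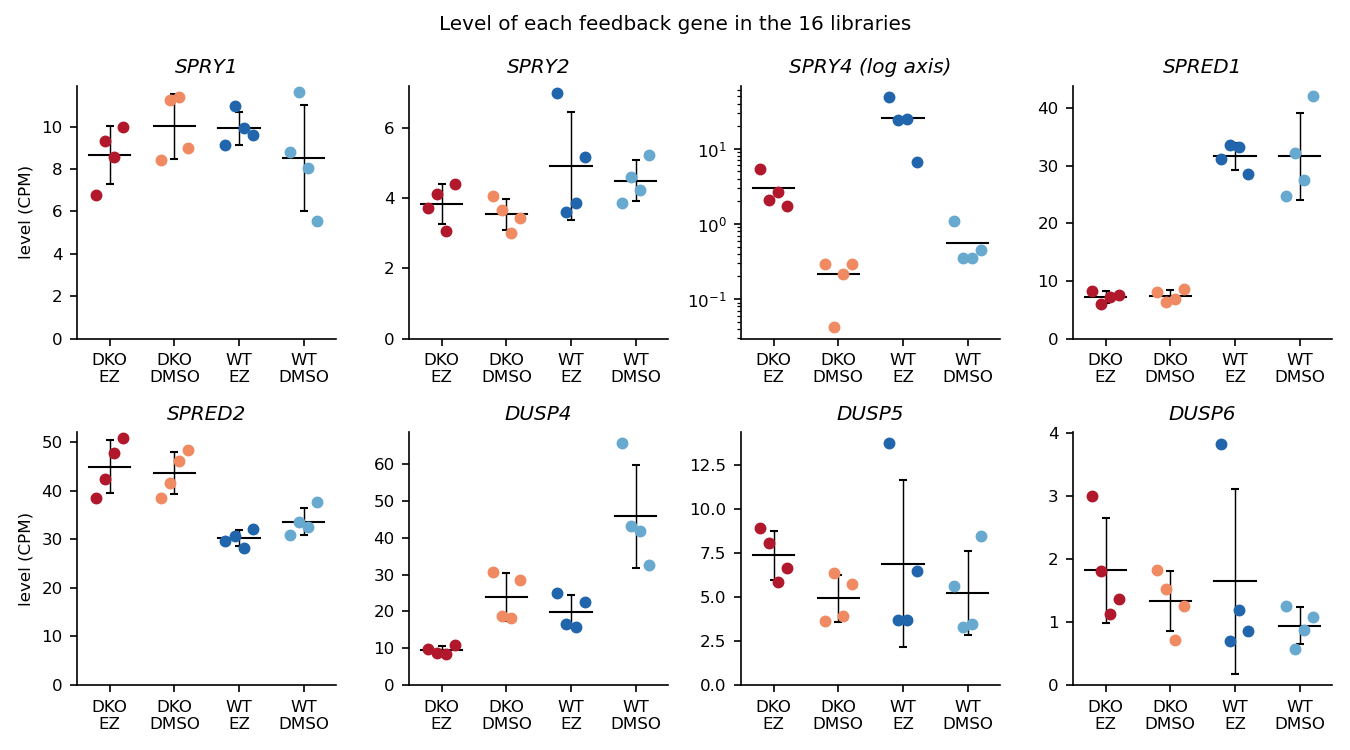
Level in CPM (y axes, linear from 0 except SPRY4, which has a log axis) of each of the 8 genes in the 16 libraries, by group; points are libraries in the order of their replicate numbers, lines are group means, and error bars on the linear panels are SD (n = 4). SPRY4 lies highest in WT EZ, SPRED1 is lower and SPRED2 higher in both DKO groups than in both WT groups, and DUSP4 is lower under EZ in both genotypes.

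Among the Sprouty genes, SPRY4 was the one with a large difference. SPRY4 (ENSG00000187678; chromosome 5, 142310427 to 142326455, GRCh38, minus strand) encodes a Sprouty protein that restrains RAS activation downstream of growth factor receptors. Its level was 5.39, 2.05, 2.69 and 1.74 CPM in DKO EZ (replicates 1 to 4), against 0.296, 0.0425, 0.216 and 0.296 CPM in DKO DMSO. The WT libraries had more, with 48.2, 24.0, 25.2 and 6.61 CPM in WT EZ, against 1.10, 0.357, 0.348 and 0.457 CPM in WT DMSO. No library of any group overlapped with another group, and the order of groups was WT EZ, DKO EZ, WT DMSO and DKO DMSO, from high to low. The last 2 rest on few reads: 1 to 13 counts per library in DKO DMSO and 6 to 21 in WT DMSO, against 26 to 91 in DKO EZ and 216 to 869 in WT EZ.

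As log2 fold changes (± SE, edgeR), SPRY4 differed by 3.71 ± 0.66 for EZ against DMSO in DKO cells and by 5.56 ± 0.63 in WT cells. Between genotypes the log2 fold change of DKO against WT was −3.14 ± 0.54 under EZ and −1.29 ± 0.73 under DMSO. The difference in drug effect, DKO minus WT, was −1.86 ± 0.92. Within replicate numbers, EZ minus DMSO was 3.88, 4.19, 3.25 and 2.30 on the log2 CPM scale in DKO cells and 5.36, 5.80, 5.90 and 3.65 in WT cells, so that replicate 4 had the smallest difference in both genotypes. When each library was left out in turn, the drug effect stayed between 3.27 and 3.96 in DKO cells and between 5.07 and 6.07 in WT cells. The RN7SL1 sets gave differences of mean log2 CPM of 4.04 (libraries high in RN7SL1) and 2.77 (low) in DKO cells, and of 5.36 (high, 1 library against 1) and 5.12 (low) in WT cells. For DKO against WT in DMSO these differences were −2.50 (high, 2 libraries against 1) and −0.49 (low), the low one being the smaller.

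SPRY1 and SPRY2, which encode Sprouty proteins of the same kind, passed the threshold in no tested comparison. SPRY1 (ENSG00000164056; chromosome 4, 123396795 to 123403760, plus strand) averaged 8.67 ± 1.39 CPM in DKO EZ and 10.0 ± 1.53 CPM in DKO DMSO (SD, n = 4 each). In WT cells it averaged 9.92 ± 0.789 CPM under EZ and 8.52 ± 2.49 CPM under DMSO, and the libraries of all 4 groups overlapped. SPRY2 (ENSG00000136158; chromosome 13, 80335976 to 80340951, minus strand) averaged 3.82 ± 0.576 CPM in DKO EZ and 3.53 ± 0.440 CPM in DKO DMSO. WT libraries averaged 4.90 ± 1.54 CPM under EZ and 4.48 ± 0.582 CPM under DMSO. Neither passed the threshold (adjusted p below 0.05 over all genes tested) in the drug comparison of DKO cells or in either genotype comparison. The 95% interval of the log2 fold change for EZ in DKO cells, on the 12 residual degrees of freedom, was −0.64 to 0.22 for SPRY1 and −0.36 to 0.59 for SPRY2, which bounds any change to under 1 on the log2 scale. For DKO against WT it was −0.62 to 0.24 under EZ and −0.20 to 0.66 under DMSO for SPRY1. For SPRY2 it was −0.83 to 0.12 under EZ and −0.82 to 0.13 under DMSO. In WT cells the SPRY2 log2 fold change under EZ, 0.12 ± 0.22, became −0.07 without WT EZ replicate 1, which held the highest SPRY2 level, 6.98 CPM.

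**Figure D2:**
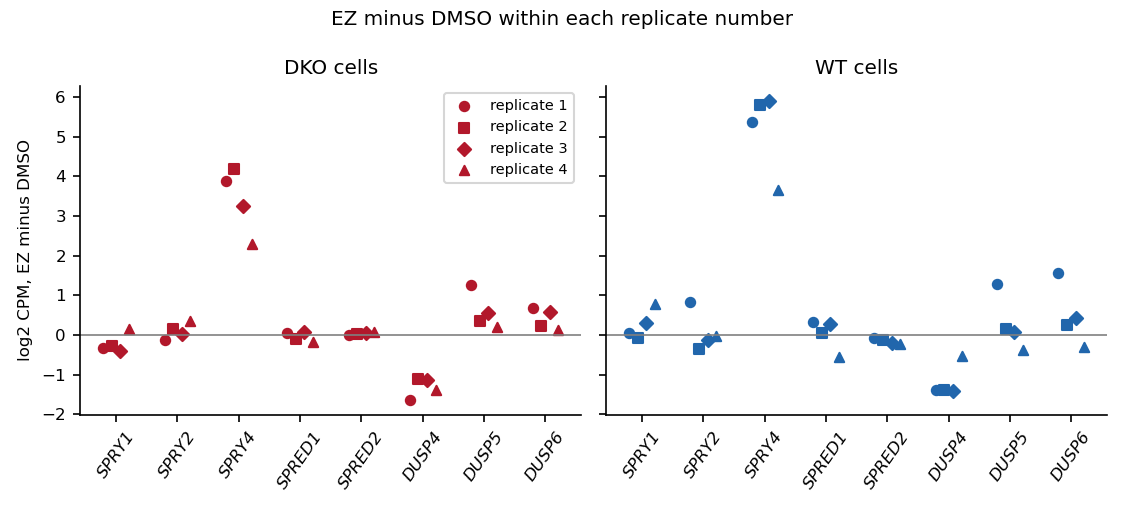
Difference of log2 CPM, EZ minus DMSO (y axis), between the libraries that share a replicate number, for each of the 8 genes (x axis) in DKO cells (left) and WT cells (right); symbols mark the replicate number. SPRY4 lies between 2.30 and 5.90 and DUSP4 between −1.63 and −0.53 in all 8 differences, while the DUSP5 and DUSP6 differences in WT cells are above 1 for replicate 1 alone.

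The SPRED genes differed between genotypes in opposite directions, and their drug differences were near 0. SPRED1 (ENSG00000166068; chromosome 15, 38252326 to 38357249, plus strand), whose loss in the germ line causes Legius syndrome through overactive RAS signalling, was lower in DKO cells. Its level was 8.32, 5.92, 7.23 and 7.57 CPM in DKO EZ, against 31.3, 33.6, 33.3 and 28.5 CPM in WT EZ. Under DMSO it was 8.0, 6.33, 6.89 and 8.62 CPM in DKO cells, against 24.8, 32.2, 27.6 and 42.1 CPM in WT cells. Every DKO library lay below every WT library. SPRED1 was lower in DKO cells, with a log2 fold change of −2.12 ± 0.17 under EZ (adjusted p = 1.22e-07) and −2.08 ± 0.17 under DMSO (adjusted p = 1.27e-07). Both calls held in all 25 alternatives tried, with a highest adjusted p of 3.54e-06 under EZ and 6.96e-05 under DMSO. Within the RN7SL1 sets the difference of mean log2 CPM for DKO against WT was −2.14 (high) and −2.09 (low) under EZ and −1.79 (high) and −2.11 (low) under DMSO. The high set compared 2 DKO libraries with 1 WT library.

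SPRED1 stood at 7.26 ± 1.01 CPM in DKO EZ and 7.46 ± 1.04 CPM in DKO DMSO, and the DKO drug effect had a 95% interval of −0.39 to 0.32 on the log2 scale. In WT cells it stood at 31.7 ± 2.37 CPM under EZ and 31.7 ± 7.58 CPM under DMSO, with overlapping libraries in both genotypes.

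SPRED2 (ENSG00000198369; chromosome 2, 65310851 to 65432637, minus strand), its closest relative and also a recruiter of neurofibromin, was higher in DKO cells. It had 38.6, 42.5, 47.7 and 50.9 CPM in DKO EZ, against 29.6, 30.8, 28.3 and 32.2 CPM in WT EZ. Under DMSO it had 38.6, 41.7, 46.2 and 48.3 CPM in DKO cells, against 30.9, 33.6, 32.6 and 37.6 CPM in WT cells. Again no DKO library overlapped with a WT library of the same treatment. In DKO cells SPRED2 was higher than in WT cells by a log2 fold change of 0.57 ± 0.11 under EZ (adjusted p = 0.00135) and 0.38 ± 0.11 under DMSO (adjusted p = 0.0241). The call under EZ held in all 25 alternatives. That under DMSO was lost without WT DMSO replicate 1 (adjusted p = 0.0536) or replicate 3 (0.0546) and with no low count filter (0.0789). The EZ effect in DKO cells was 0.04 ± 0.11, with a 95% interval of −0.20 to 0.28, and in WT cells it was −0.16 ± 0.11.

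**Figure D3:**
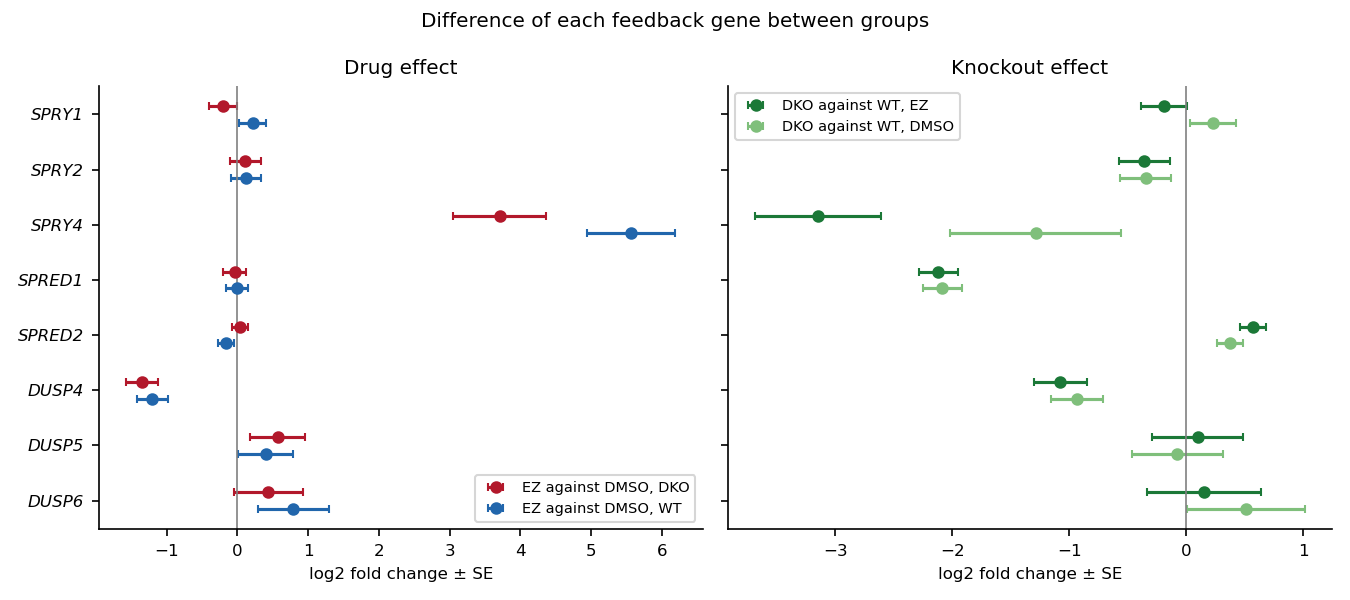
Log2 fold change (x axes, points, with ± SE bars from the fit of all 16 libraries) of each of the 8 genes (rows) for EZ against DMSO in DKO and WT cells (left) and for DKO against WT under EZ and DMSO (right). SPRY4 is the far point on the drug side, DUSP4 is lower in all 4 comparisons, and SPRED1 and SPRED2 move in opposite directions between genotypes.

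Of the 3 phosphatase genes, DUSP4 was lower under the drug and lower in the knockout. DUSP4 (ENSG00000120875; chromosome 8, 29333064 to 29350668, minus strand) encodes a nuclear phosphatase that inactivates ERK and other MAP kinases. It had 9.88, 8.68, 8.32 and 10.9 CPM in DKO EZ, against 30.7, 18.7, 18.3 and 28.5 CPM in DKO DMSO. In WT cells it had 25.0, 16.6, 15.8 and 22.6 CPM under EZ, against 65.8, 43.2, 42.0 and 32.7 CPM under DMSO. The groups ran from DKO EZ, the lowest, through WT EZ and DKO DMSO, whose libraries overlapped, to WT DMSO. The drug groups did not overlap in either genotype, and neither did the genotypes under the same treatment.

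DUSP4 fell under EZ in DKO cells, by a log2 fold change of −1.34 ± 0.23 (adjusted p = 0.0077). It was lower in DKO than in WT cells by −1.08 ± 0.23 under EZ (adjusted p = 0.00239) and by −0.93 ± 0.22 under DMSO (adjusted p = 0.00609). All 3 calls held in every alternative tried, the highest adjusted p being 0.0312, 0.0240 and 0.0461. In WT cells the drug difference was −1.20 ± 0.22. The difference in drug effect, DKO minus WT, was −0.14 ± 0.31, with a 95% interval of −0.83 to 0.54. Within replicate numbers EZ minus DMSO was −1.63, −1.10, −1.13 and −1.38 in DKO cells and −1.39, −1.38, −1.41 and −0.53 in WT cells, the last being replicate 4. Within the RN7SL1 sets the drug difference in DKO cells was −1.36 (high) and −1.26 (low). The genotype difference was larger in the high set under both treatments, at −1.43 (high) and −0.92 (low) under EZ and −1.46 (high) and −0.77 (low) under DMSO. In the high set it compared 2 DKO libraries with 1 WT library. That WT library, replicate 1, had the highest DUSP4 level of its group under both treatments.

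DUSP5 and DUSP6, the phosphatases most specific for ERK, passed the threshold in no tested comparison. DUSP5 (ENSG00000138166; chromosome 10, 110497838 to 110511544, plus strand) had 8.92, 8.05, 5.84 and 6.65 CPM in DKO EZ, against 3.65, 6.33, 3.93 and 5.75 CPM in DKO DMSO. In WT cells it had 13.7, 3.70, 3.67 and 6.45 CPM under EZ, against 5.59, 3.30, 3.48 and 8.43 CPM under DMSO. EZ minus DMSO was above 0 for all 4 replicate numbers in DKO cells, at 1.27, 0.34, 0.56 and 0.21 on the log2 CPM scale, but the log2 fold change of 0.57 ± 0.39 did not pass (adjusted p = 0.598; 95% interval −0.27 to 1.42). For DKO against WT the interval was −0.74 to 0.94 under EZ and −0.92 to 0.77 under DMSO.

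DUSP6 (ENSG00000139318; chromosome 12, 89347232 to 89353271, minus strand) was the least abundant of the 3. It had 2.99, 1.81, 1.12 and 1.36 CPM in DKO EZ, against 1.83, 1.53, 0.722 and 1.25 CPM in DKO DMSO. In WT cells it had 3.82, 0.693, 1.20 and 0.856 CPM under EZ, against 1.25, 0.567, 0.871 and 1.08 CPM under DMSO. The libraries overlapped in all 4 comparisons. Its log2 fold change for EZ in DKO cells was 0.44 ± 0.49 (adjusted p = 0.803; 95% interval −0.63 to 1.5), an interval that holds a difference of 1 on the log2 scale. DKO libraries had 20 to 65 DUSP6 counts. For DKO against WT the DUSP6 interval was −0.91 to 1.22 under EZ and −0.58 to 1.60 under DMSO. DUSP6 shares 1875 exon bases with an antisense gene, ENSG00000274021, which had 1 to 12 counts per library. The strand setting of the counting was not given, so reads of the pair may be mixed.

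WT EZ replicate 1, the library with the lowest summed mitosis genes, held the highest DUSP4, DUSP5, DUSP6, SPRY2 and SPRY4 levels of its group. Replicate 1 also had the highest DUSP6 level in DKO EZ (2.99 CPM), DKO DMSO (1.83 CPM) and WT DMSO (1.25 CPM). For SPRY4 it was highest in DKO EZ (5.39 CPM) and WT DMSO (1.10 CPM), and in DKO DMSO level with replicate 4 at 0.296 CPM. WT DMSO replicate 1 had the highest summed mitosis genes of its group, 1937 CPM. Without WT EZ replicate 1 the log2 fold change for EZ in WT cells moved to −0.15 for DUSP5 (0.40 ± 0.39 with it) and to −0.01 for DUSP6 (0.79 ± 0.50 with it). In the RN7SL1 sets the DUSP6 difference in WT cells was 1.55 between the high libraries, 1 against 1, and 0.13 between the low ones, and the DUSP5 difference was 1.29 and −0.05. Across the 16 libraries, which share groups and depth, DUSP5 and DUSP6 had a Pearson r of 0.74 in log2 CPM (0.72 for deviations from the group means), given as a description.

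**Figure D4:**
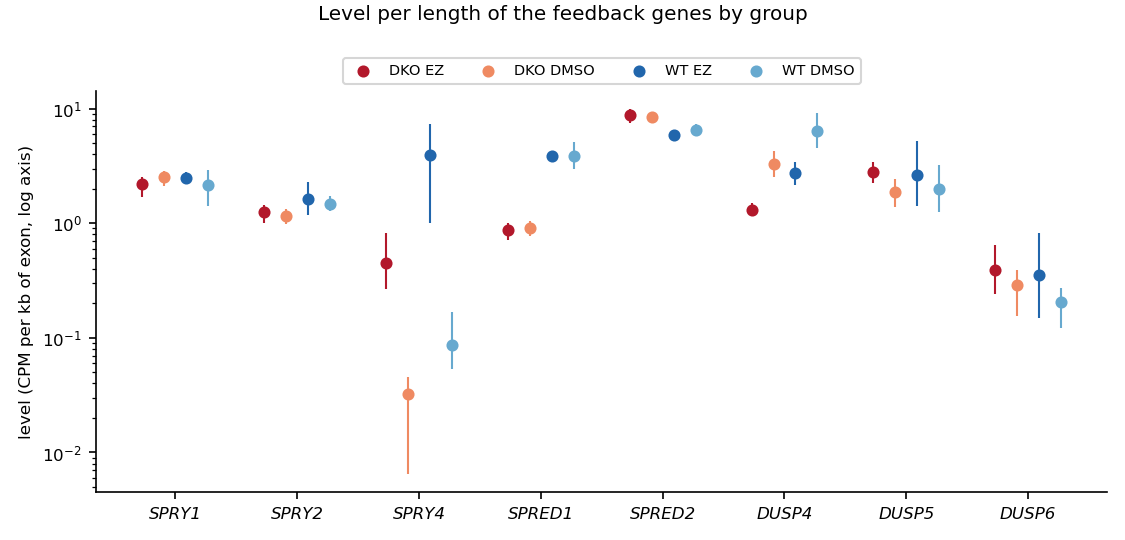
Level per length (y axis, CPM per kb of exon, log axis) of the 8 genes (x axis) in the 4 groups; points are group means and vertical lines run from the lowest to the highest of 4 libraries. SPRED2 has the highest mean in all 4 groups, and SPRY4 is the lowest of the 8 in both DMSO groups.

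Levels of different genes were compared per kilobase of exon. SPRY4 averaged 0.452 CPM per kb in DKO EZ and 0.0324 CPM per kb in DKO DMSO, and 3.96 CPM per kb in WT EZ and 0.0860 CPM per kb in WT DMSO. It was thus the lowest of the 8 genes in both DMSO groups. In WT EZ its mean came after that of SPRED2, at 5.87 CPM per kb, and next to SPRED1, at 3.83 CPM per kb. Its own libraries ran from 1.01 to 7.33 CPM per kb there, so it did not differ from either beyond its spread. In DKO EZ it lay next to DUSP6 (0.394 CPM per kb) at the low end. SPRED2 averaged 8.72 CPM per kb in DKO EZ and 8.48 CPM per kb in DKO DMSO. DUSP4 and SPRED2 overlapped at the top in WT DMSO, at 6.33 and 6.53 CPM per kb.

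Counted over the family, the calls were few and mixed. In the drug comparison of DKO cells, SPRY4 left out, 0 of 7 genes were higher and 1, DUSP4, was lower, where 1.48% of all genes were called (1.03% higher, 0.445% lower). For DKO against WT under EZ, 1 of 7 was higher (SPRED2) and 2 were lower (SPRED1 and DUSP4), where 20.7% of all genes were called (9.29% higher, 11.4% lower). Under DMSO the same 3 genes were called in the same directions, where 18.6% of all genes were (8.91% higher, 9.7% lower). The drug comparison of WT cells, in which 3.32% of all genes were called, chose the set, and no calls of the 8 genes are counted there. Median log2 fold changes of the 7 genes were 0.04 for EZ in DKO cells, −0.19 for DKO against WT under EZ and −0.08 under DMSO, beside 0.01, −0.01 and −0.06 over all genes. The comparisons that share a group share its libraries. By edgeR 0 of the 7 genes, and 0 of all genes (0% called), differed in drug effect between the genotypes. At an unadjusted p below 0.05 there were 0 of the 7 and 648 of all genes, 2.97% of those tested, and DESeq2 called 0 of the 7 and 10 of all genes.

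Scaling by library totals alone, in place of TMM, shifted the median log2 fold change of all genes for DKO against WT by 0.24 under EZ and 0.20 under DMSO. The split of calls became 3966 higher and 1183 lower under EZ (2027 and 2481 with TMM) and 3479 higher and 1082 lower under DMSO (1943 and 2115 with TMM). Upper-quartile scaling shifted it by 0.11 under EZ, with 2703 higher and 1952 lower. For EZ in WT cells the calls were 491 higher and 233 lower with TMM, 513 and 401 with upper-quartile scaling, and 447 and 361 with totals. SPRED1 and DUSP4 stayed lower and SPRED2 higher in DKO cells under each of these scalings.

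Other genes of the pathway were followed as lists. List calls by edgeR and DESeq2 come from fits that did not pair libraries by replicate number, except where a block is named. Counts at an unadjusted p below 0.05 are given for the lists without the share of all genes at that cut-off. That share was taken only for the difference in drug effect, so these counts cannot be set against a background. Among 10 further family members, the drug raised DUSP2, an ERK phosphatase induced by growth factors, in both genotypes. It stood at 19.0 ± 9.27 CPM in DKO EZ, against 8.03 ± 0.942 CPM in DKO DMSO (log2 fold change 1.24 ± 0.29, adjusted p = 0.0418), and at 17.4 ± 7.26 CPM in WT EZ, against 7.88 ± 1.55 CPM in WT DMSO (1.14 ± 0.29, adjusted p = 0.0382). DUSP8, a phosphatase of JNK and p38, rose in DKO cells, to 19.3 ± 1.42 CPM under EZ against 11.5 ± 3.68 CPM under DMSO (0.74 ± 0.17, adjusted p = 0.0418). None of the 10 was called lower under EZ by edgeR, and the list medians were 0.29 in DKO and 0.16 in WT cells. These 3 calls were lost on leaving out any 1 of 12 (DUSP2 in DKO), 10 (DUSP2 in WT) and 13 (DUSP8) of the 16 libraries. Their highest adjusted p was 0.155 (without DKO DMSO replicate 2), 0.140 (without WT EZ replicate 1) and 0.138 (without DKO DMSO replicate 2). Under DMSO, DKO cells had more SPRY3, a further Sprouty gene (0.96 ± 0.27, adjusted p = 0.0194) and DUSP9, an ERK phosphatase (0.90 ± 0.29, adjusted p = 0.0373) and less DUSP8 (−0.77 ± 0.17, adjusted p = 0.0044) and DUSP10, a phosphatase of JNK and p38 (−0.67 ± 0.22, adjusted p = 0.0437) than WT cells. Of these, SPRY3 was lost with the 2 groups of the comparison alone (adjusted p = 0.0581), DUSP9 was lost without any 1 of 5 libraries and DUSP10 without any 1 of 13, with highest adjusted p of 0.0930 (without WT DMSO replicate 2) and 0.182 (without WT DMSO replicate 4). Under EZ 0 of the 10 were called between genotypes by edgeR or by DESeq2, and 2 had an unadjusted p below 0.05. Over all genes edgeR called 1.48% for EZ in DKO cells and 3.32% in WT cells. For DKO against WT it called 18.6% under DMSO and 20.7% under EZ.

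Of the genes that ERK commonly induces, 14 of the 16 listed were tested. With libraries unpaired, 0 were called by edgeR or by DESeq2 for EZ in either genotype. Over all genes edgeR called 1.48% for EZ in DKO cells and 3.32% in WT cells. At an unadjusted p below 0.05 there were 2 in DKO cells (1 higher, 1 lower) and 2 in WT cells (both higher), and the list medians were 0.09 in DKO and 0.32 in WT cells. With libraries paired by replicate number within genotype, edgeR called MYC lower in DKO cells and SPHK1 higher in WT cells. That fit called 1691 of all genes in DKO cells and 2641 in WT cells. Between genotypes, the cyclin gene CCND1 was lower in DKO cells. It stood at 112 ± 31.5 CPM in DKO EZ against 403 ± 48.2 CPM in WT EZ (−1.85 ± 0.20, adjusted p = 5.92e-06) and at 97.4 ± 23.9 CPM in DKO DMSO against 319 ± 33.2 CPM in WT DMSO (−1.71 ± 0.20, adjusted p = 1.33e-05). The ETS factor ETV1, known for overexpression in LNCaP, had 0 to 2 counts in every DKO library. It averaged 0.0468 CPM in DKO EZ against 5.75 ± 2.57 CPM in WT EZ, and 0.0606 CPM in DKO DMSO against 8.84 ± 2.95 CPM in WT DMSO. SPHK1, a sphingosine kinase, was higher in DKO cells (1.20 ± 0.26 under EZ, adjusted p = 0.0028; 1.46 ± 0.26 under DMSO, adjusted p = 0.000765). For DKO against WT 1 was higher and 3 were lower under EZ, and 1 was higher and 2 were lower under DMSO, of 14 each. Of all genes 20.7% and 18.6% were called.

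**Figure D5:**
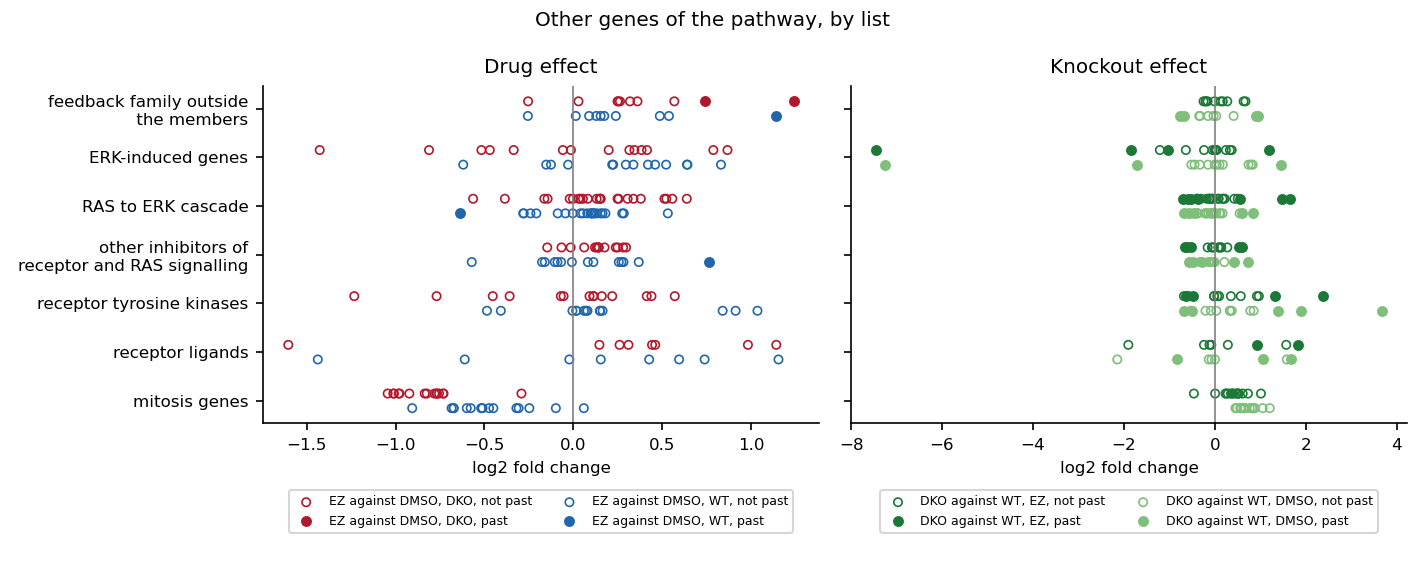
Log2 fold change (x axes) of each tested gene of 7 pathway lists (rows), for EZ against DMSO in DKO and WT cells (left) and for DKO against WT under EZ and DMSO (right); filled points passed the threshold and open points did not. Filled points on the drug side are DUSP2, DUSP8, RASAL2 and RPS6KA3, while on the knockout side they lie to both sides of 0; the far left pair is ETV1, whose fitted value depends on the prior count because DKO libraries held almost no ETV1 reads.

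Along the cascade from RAS to ERK, 0 of 23 genes were called for EZ in DKO cells by edgeR or by DESeq2. At an unadjusted p below 0.05 there were 9, of which 7 were higher, and the share of all genes at that cut-off was not taken. In WT cells 1 was called, RPS6KA3, a kinase that ERK activates (−0.64 ± 0.17, adjusted p = 0.0491). That call was lost without any 1 of 13 libraries (highest adjusted p 0.172, without WT EZ replicate 4). Over all genes edgeR called 1.48% for EZ in DKO cells and 3.32% in WT cells. For DKO against WT, 3 rose and 4 fell under EZ and 2 rose and 3 fell under DMSO, of 23 each, where 20.7% and 18.6% of all genes were called. The adaptor GAB2 rose, to 29.5 ± 8.72 CPM in DKO EZ against 9.44 ± 2.41 CPM in WT EZ (1.65 ± 0.25, adjusted p = 0.000131) and under DMSO by 0.85 ± 0.24 (adjusted p = 0.0193; 0.0592 without WT DMSO replicate 2). MAP2K1, which encodes the ERK kinase MEK1, fell, to 49.0 ± 5.17 CPM in DKO EZ against 79.8 ± 1.24 CPM in WT EZ (−0.70 ± 0.12, adjusted p = 0.000462) and under DMSO by −0.67 ± 0.12 (adjusted p = 0.000753). The scaffold KSR1 was higher in DKO than in WT cells under EZ (1.47 ± 0.36, adjusted p = 0.00687). MAP2K2, which encodes MEK2, was lower in DKO than in WT cells under EZ (−0.60 ± 0.14, adjusted p = 0.00659, and 0.0544 with library totals). In DKO cells the phosphatase gene PTPN11 was lower than in WT cells under DMSO (−0.56 ± 0.12, adjusted p = 0.00363). Under EZ PTPN11 differed by −0.36 ± 0.12 (adjusted p = 0.0469), a call lost without any 1 of 15 libraries (highest adjusted p 0.281, without DKO EZ replicate 3). The kinase gene MAPK7 was higher in DKO than in WT cells under DMSO (0.61 ± 0.15, adjusted p = 0.00957).

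Among 14 other inhibitors of receptor and RAS signalling, edgeR called 1 for EZ in WT cells, RASAL2, a RAS GTPase activator. It stood at 96.1 ± 30.1 CPM under EZ against 56.6 ± 5.11 CPM under DMSO (0.76 ± 0.17, adjusted p = 0.019). The adjusted p was 0.0532 without WT EZ replicate 2 and 0.118 with those 2 groups alone. DESeq2 called RASAL2 and LRIG1 in WT cells. In DKO cells 0 were called by edgeR or by DESeq2 (2 at an unadjusted p below 0.05). Over all genes edgeR called 3.32% for EZ in WT cells and 1.48% in DKO cells. Between genotypes 2 rose and 3 fell under each treatment, of 14, where 20.7% (EZ) and 18.6% (DMSO) of all genes were called. IL17RD, a membrane inhibitor of FGF signalling also called SEF, was higher in DKO cells (0.60 ± 0.12 under EZ, adjusted p = 0.00181; 0.74 ± 0.12 under DMSO, adjusted p = 0.000346). LRIG1, which promotes receptor breakdown, was lower (−0.66 ± 0.11 under EZ, adjusted p = 0.000318; −0.57 ± 0.11 under DMSO, adjusted p = 0.00116). So was the RAF inhibitor gene PEBP1 (−0.61 ± 0.11 under EZ, adjusted p = 0.000614; −0.48 ± 0.11 under DMSO, adjusted p = 0.00458). CBLB, a ubiquitin ligase of receptors, was higher in DKO than in WT cells under EZ (0.52 ± 0.17, adjusted p = 0.0411). The adjusted p was 0.0931 without DKO EZ replicate 1, 1 of 7 libraries whose removal ended the call. CBLB averaged 42.2 CPM in DKO EZ and 42.7 CPM in DKO DMSO, and 29.4 CPM in WT EZ and 43.7 CPM in WT DMSO. LRIG3 was higher in DKO than in WT cells under DMSO (adjusted p = 0.0337). Its adjusted p was 0.0709 without WT DMSO replicate 1, 1 of 3 libraries whose removal ended the call.

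Of 14 receptor tyrosine kinase genes 0 were called for EZ in either genotype by edgeR or by DESeq2, with 2 in DKO and 3 in WT cells at an unadjusted p below 0.05. Over all genes, here and for the ligand and mitosis lists below, edgeR called 1.48% for EZ in DKO cells and 3.32% in WT cells. DKO cells had more FGFR1, a fibroblast growth factor receptor, under both treatments, at 29.1 ± 2.25 CPM in DKO EZ against 11.7 ± 2.23 CPM in WT EZ (1.32 ± 0.14, adjusted p = 5.33e-06) and 30.2 ± 2.88 CPM in DKO DMSO against 11.5 ± 1.66 CPM in WT DMSO (1.39 ± 0.14, adjusted p = 3.02e-06). They had more MET, the hepatocyte growth factor receptor, under DMSO (1.89 ± 0.37, adjusted p = 0.00158). They had less INSR, the insulin receptor (−0.64 ± 0.10 under EZ, adjusted p = 0.000211; −0.68 ± 0.10 under DMSO, adjusted p = 0.000131). ERBB2 was lower (adjusted p = 0.0334 under EZ and 0.0333 under DMSO) in calls that the removal of any 1 of 10 and of 14 libraries ended. RET was higher, at 4.68 ± 3.07 CPM in DKO EZ against 0.898 ± 0.193 CPM in WT EZ (2.38 ± 0.78, adjusted p = 0.043, lost without any 1 of 11 libraries). Under DMSO it was at 11.1 ± 15.4 CPM in DKO DMSO against 0.895 ± 0.378 CPM in WT DMSO (3.67 ± 0.81, adjusted p = 0.005). DKO DMSO replicate 4 alone held 34.2 CPM of RET, against 2.57 to 3.82 CPM in the other 3 libraries of its group, and without it the log2 fold change was 2.02 (adjusted p = 0.00402). Of 8 tested ligand genes 0 were called for EZ by edgeR, with 2 in DKO and 3 in WT cells at an unadjusted p below 0.05; DESeq2 called TGFA in WT cells. TGFA, a ligand of the EGF receptor, was higher in DKO cells (0.94 ± 0.18 under EZ, adjusted p = 0.00107; 1.07 ± 0.18 under DMSO, adjusted p = 0.000407). So was BTC, another such ligand (1.84 ± 0.44 under EZ, adjusted p = 0.00656; 1.69 ± 0.45 under DMSO, adjusted p = 0.0128). EGF was lower under DMSO (adjusted p = 0.0468), a call lost without any 1 of 14 libraries. Of the 15 mitosis genes 0 were called in any comparison by edgeR, with at most 1 at an unadjusted p below 0.05. For DKO against WT the share of all genes called was 20.7% under EZ and 18.6% under DMSO. DESeq2 made 1 call, CDK1 for DKO against WT under DMSO. The list medians were −0.82 for EZ in DKO cells, −0.51 for EZ in WT cells, and 0.41 under EZ and 0.77 under DMSO for DKO against WT.

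With the replicate number as a block within genotype, a pairing that the libraries bear out for the drug comparisons, 1691 genes were called for EZ in DKO cells (322 without the block) and 2641 in WT cells (724 without it). Of the 7 tested feedback genes DUSP4 was again the 1 past the threshold in DKO cells. All the drug calls of the lists named above stayed past the threshold, and further genes joined them. In DKO cells the transcription factor gene MYC fell (−0.47 ± 0.12, adjusted p = 0.0359), as did HRAS (adjusted p = 0.0491), while DUSP10 (0.60 ± 0.13, adjusted p = 0.0185), TGFA (adjusted p = 0.0128), LRIG1 (adjusted p = 0.0431) and PTPN11 (adjusted p = 0.0334) rose. In WT cells MET (1.07 ± 0.18, adjusted p = 0.0026), ERBB4 (adjusted p = 0.0153), FGFR3 (adjusted p = 0.0332), TGFA (adjusted p = 0.0024), LRIG1 (adjusted p = 0.0077) and SPHK1 (adjusted p = 0.0436) rose, and CBLB fell (adjusted p = 0.0262). The 14 receptor tyrosine kinase genes thus counted 3 higher with the block and 0 without it in WT cells. Of all 21810 genes, 1672 were higher with the block and 491 without it.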

How the data were processed

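Total RNA with ribosomal RNA depletion was sequenced from 16 LNCaP libraries, and for each library the authors deposited a file of raw counts by Ensembl ID, all whole numbers. The submitters' processing notes name STAR 2.7.3a and GRCh38 without a role. The counting tool, its strand setting and the annotation are not stated. Libraries were grouped and numbered by their titles. Chromosome positions, gene types and exon lengths came from GENCODE release 29, which held 58503 of the 60676 IDs.

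Counts were tested with edgeR 4.0.16 (R 4.3.3): filterByExpr with a minimum count of 10, TMM scaling, 1 mean per group over all 16 libraries, the robust quasi-likelihood F-test and Benjamini-Hochberg adjustment over 21810 genes, with a threshold of 0.05. The common biological coefficient of variation was 28.0%. CPM were computed with TMM library sizes, and log2 CPM with a prior count of 2. CPM per kb divides by the union of exons. The fit was tested on simulated data. No 2 libraries of a group agreed within sampling noise (chi-square per degree of freedom 5.37 to 104).

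Members and lists were chosen with earlier results of these data known. Named genes were all members, up to 2 highest and 2 lowest of each list among calls with at least 1 CPM, and the 5 protein-coding genes most correlated with SPRY4 and with DUSP6. List genes named for the replicate block or DESeq2 were chosen after their values were seen. Of the luminal marker list, 8 genes were used, and the rest are not reported here.

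Same-numbered libraries deviated together between treatments within a genotype (correlation of deviations from group means 0.40 to 0.66 in DKO and 0.33 to 0.62 in WT cells). Among the DMSO libraries of its genotype, each EZ library correlated best with that of its own number. The numbers were therefore taken to pair libraries in the drug comparisons. Alternatives were RLE, upper-quartile and no further scaling, no low count filter, DESeq2 1.42.0 (Wald test), a replicate block, the RN7SL1 library set as a term, the 2 groups of a comparison alone, and leaving libraries out.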

Additional observations from a re-analysis of the deposited data

Results flagged for a closer look

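In WT DMSO, replicate 1 had a SPRY4 level of 1.10 CPM, against 0.348 to 0.457 CPM in the other 3 libraries, a gap large enough relative to the range to stand out for a group of 4. In WT EZ, replicate 1 had a DUSP6 level of 3.82 CPM, against 0.693 to 1.20 CPM in the other 3 libraries, by the same measure. Among 32 gene and group combinations examined this way 2 stood out, where chance gives about 1 in 20.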

How the results depend on the processing

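Calls of the 7 tested feedback genes kept their side of the threshold under every alternative in all tested comparisons, except SPRED2 for DKO against WT under DMSO. Directions of values that were never called did change. DUSP5 for DKO against WT under DMSO (−0.08) became 0.012 with upper-quartile scaling, 0.16 with library totals and 0.015 with the replicate block. SPRY1 under EZ became 0.042 with library totals. The difference in drug effect became, for SPRY2, 0.033 with upper-quartile scaling, 0.034 with library totals, 0.016 with the replicate block, 0.039 with the block within genotype, 0.026 with the RN7SL1 term and 0.18 without replicate 1 of both EZ groups. It became 0.086 for DUSP6 without those 2 libraries and 0.0047 for SPRED1 with upper-quartile scaling. Leaving out 1 library at a time, this difference ran from −0.42 to 0.0083 for DUSP4, −0.20 to 0.71 for DUSP5, −0.73 to 0.43 for DUSP6, −0.24 to 0.043 for SPRED1 and −0.17 to 0.17 for SPRY2. DUSP5 for DKO against WT ran from −0.12 to 0.66 under EZ and −0.22 to 0.30 under DMSO, and DUSP6 under EZ from −0.18 to 0.98. The drug effect in DKO cells ran from −0.11 to 0.035 for SPRED1 and −0.019 to 0.10 for SPRED2.

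Counts of all genes called for the drug moved more. In DKO cells (322) they were 167 with no low count filter, 751 with DESeq2, 1104 with the replicate block, 1691 with it within genotype, 519 with the RN7SL1 term, and 73 (without DKO DMSO replicate 2) to 451 leaving out 1 library. In WT cells (724) they were 436, 1239, 1724 and 2641 under the first 4 of these, 294 with the 2 groups alone, and 304 (without WT DMSO replicate 2) to 1051 leaving out 1 library. For the difference in drug effect (0) they were 10 with DESeq2, 1 with the replicate block and 39 with it within genotype. The cause was not tested. The blocks changed no call of the 7 tested feedback genes. Between genotypes the numbers were not taken to pair the libraries, since not every pair correlated above 0.1: replicates 1 to 4 were at 0.23, −0.052, 0.23 and 0.52 under EZ and at 0.29, −0.067, 0.32 and 0.67 under DMSO. The block there gave 6404 calls under EZ and 5868 under DMSO. Of the values for single genes, lists and motifs under an alternative, 2700 were classed as unchanged, 167 as having lost their call, 43 as reversed in direction and 108 as moved. For tested genes, unchanged means the same direction and side of the threshold. For counts it means within 1.5 times, and moved means by more. The values described with no test (SPRY4, and the feedback genes under EZ in WT cells) were not classed by direction or threshold. Over the alternatives, log2 fold changes for EZ in WT cells crossed 0 for DUSP5 (−0.15 to 0.77) and DUSP6 (−0.01 to 1.06). They also did so for SPRY2 (−0.07 to 0.27) and SPRED1 (−0.08 to 0.19). Depth was lowest for SPRY4 in DMSO, at 1 to 21 counts per library, and for DUSP6, at 15 to 69.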

Other observations

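Over the 16 libraries and 12662 protein-coding genes, the genes whose log2 CPM ran most like that of SPRY4 were GRHL2, an epithelial transcription factor (Pearson r = 0.96), SELENOW, a selenoprotein (0.95), RXRA, a retinoid receptor (0.95), TRPV6, a calcium channel (0.95), and C4orf50 (0.94). The libraries share their groups: for deviations from the group means r fell to 0.67, 0.47, 0.40, 0.69 and 0.38, and 0 of the 5 ranked among the first 5 by that measure. TRPV6 averaged 20.3 CPM in DKO EZ and 10.2 CPM in DKO DMSO, and 34.8 CPM in WT EZ and 14.7 CPM in WT DMSO. SELENOW averaged 31.4 CPM in DKO EZ and 16.0 CPM in DKO DMSO, and 60.0 CPM in WT EZ and 21.6 CPM in WT DMSO.

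For DUSP6 the nearest genes were BMPR1A, a receptor for bone morphogenetic proteins (r = 0.91), NBPF11 (0.89), SRGAP2C (0.89), OR2A7 (0.88) and FTH1, the ferritin heavy chain (0.87). Their deviations from the group means correlated as closely, at 0.92, 0.87, 0.88, 0.89 and 0.89, and 1 of the 5, BMPR1A, ranked among the first 5. NBPF11 and SRGAP2C belong to families of near-identical copies, so their counts are uncertain.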
